A study of Rattus norvegicus with 19 samples.

Results

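The genes described here are 9 members of the rat segment corresponding to human 16p11.2, chosen by symbol. Most have roles in metabolism, in membranes or in the vault particle. The exceptions are *Ypel3*, known for arresting cell growth, and *Slx1b*, which acts on branched DNA. The members are *Qprt*, *Bola2*, *Asphd1*, *Cdipt*, *Fam57b*, *Mvp*, *Ypel3*, *Slx1b* and *Tmem219*. They belong to a list of 32 interval genes, within 32623 genes counted in every library. Of the 9, 8 were found by symbol and all 8 passed the filter on low counts, as did 19 other interval genes and 15440 genes in total. *Tmem219* was found neither by its symbol nor by its synonym RGD1560566, and no value is given for it.

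Hippocampal RNA came from 19 male Sprague Dawley rats, with 1 library for each animal. The 6 wild-type (wt) rats and the 4 Del/Dup rats had 2 copies of the segment, the 4 Del/+ rats had 1 copy and the 5 Dup/+ rats had 3 copies. In Del/Dup the deleted chromosome is paired with the duplicated one, so that both copies lie on a single chromosome. Both alleles were germline changes made with CRISPR/Cas9 in zygotes of this outbred strain, over the segment from *Sult1a1* to *Spn*, so all cells of a carrier have the same alleles. Del/Dup rats came from crosses of the deletion with the duplication line. The animals were adults, per the study, and their age in weeks at sampling is not given in the sources used here. For wt replicate 5 the label gave 2 different genotypes, wt in its description and Dup/+ in its genotype field. It was counted as wt. Its levels were below every Dup/+ library for 7 of the 8 measured members, for example 25.2 CPM (counts scaled to a common library size) of *Slx1b* against 38.5 to 41.7 in Dup/+ and 25.7 to 26.9 in the other wt libraries. The exception was *Asphd1*, at 17.8 CPM against a Dup/+ minimum of 17.7.

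The rearrangements were made with a pair of guide RNAs, shown because they set the copy number of every member. Their 21-base sequences, in lower case with no position marked, were as follows.
first guide: gcaatctcacgtgtctgatgg
second guide: gtgacatcgtgaccctgctgg
Their genome positions are not given here.

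The members have separate biochemical roles and are linked by position. In the RefSeq gene order *Slx1b* and *Bola2* are neighbours at the *Sult1a1* end of the segment, *Cdipt* and *Mvp* are neighbours, and *Qprt* lies next to *Spn* at the other end. *Qprt*, quinolinate phosphoribosyltransferase, turns the kynurenine product quinolinate into a precursor of NAD. *Cdipt* makes phosphatidylinositol in the endoplasmic reticulum, and *Fam57b*, named *Tlcd3b* in RefSeq, is a membrane protein linked to ceramide synthesis. *Bola2* works with the glutaredoxin *Glrx3* in passing on iron-sulfur clusters in the cytosol. *Asphd1* carries a domain of the aspartate beta-hydroxylase family. *Mvp* is the main protein of the vault, a large ribonucleoprotein particle of the cytoplasm. *Ypel3* belongs to the yippee family and is known for arresting cell growth, and *Slx1b* is the nuclease subunit that acts with *Slx4* on branched DNA. *Tmem219* is a membrane receptor for *Igfbp3*. When a gene is transcribed equally from every copy, its RNA follows the number of copies.

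RefSeq windows of 300 bases around the start site were found for *Slx1b*, *Mvp*, *Qprt*, *Cdipt*, *Fam57b*, *Ypel3* and *Tmem219*. The windows of *Slx1b*, *Mvp* and *Qprt* are printed because these genes had, among the members, the steepest response to copies, the flattest response, and the fewest reads with the widest spread. Capitals mark every match, on either strand, to the TATA box (TATAAA), the CCAAT box (CCAAT), the GC box of Sp1 (GGGCGG) or the core of ETS sites (CGGAAG). Coordinates are those of GRCr8, a later assembly than that of the counts.
*Slx1b*, chr1:190722258-190722557, minus strand: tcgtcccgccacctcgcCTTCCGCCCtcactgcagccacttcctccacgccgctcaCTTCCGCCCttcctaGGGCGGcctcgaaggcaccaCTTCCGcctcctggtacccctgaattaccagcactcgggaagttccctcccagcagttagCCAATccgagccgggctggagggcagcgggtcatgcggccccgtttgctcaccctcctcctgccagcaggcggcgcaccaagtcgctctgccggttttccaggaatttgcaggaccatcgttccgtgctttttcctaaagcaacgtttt
*Mvp*, chr1:191052817-191053116, minus strand: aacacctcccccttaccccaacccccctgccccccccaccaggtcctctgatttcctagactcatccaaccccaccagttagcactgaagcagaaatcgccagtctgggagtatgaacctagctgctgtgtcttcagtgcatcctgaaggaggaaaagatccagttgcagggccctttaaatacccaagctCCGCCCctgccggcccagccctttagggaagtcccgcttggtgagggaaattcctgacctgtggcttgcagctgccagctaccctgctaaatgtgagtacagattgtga
*Qprt*, chr1:191163957-191164256, minus strand: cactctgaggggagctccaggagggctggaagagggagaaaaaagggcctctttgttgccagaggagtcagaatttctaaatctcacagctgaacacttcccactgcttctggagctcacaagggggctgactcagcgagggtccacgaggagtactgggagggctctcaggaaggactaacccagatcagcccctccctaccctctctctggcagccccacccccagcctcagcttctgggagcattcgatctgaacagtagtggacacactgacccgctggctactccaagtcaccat
The *Slx1b* window held 23 CpG, 1 CCAAT, 3 GGGCGG and 3 CGGAAG matches, of which some on the opposite strand overlap each other. The *Mvp* window held 4 CpG and 1 GGGCGG match, and the *Qprt* window held 4 CpG and no match. Over 33469 rat windows of the same length the median was 7 CpG, with the middle of the distribution from 3 to 19. TATAAA was in 14.2% of those windows, CCAAT in 37.5%, GGGCGG in 33.1% and CGGAAG in 16.6%. A match describes letters in a window only.

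Gene counts totalled 16191192 to 38760645 reads per library. The share of lines for reads aligned to more than 1 place was 40.1% to 47.6% in wt and 45.1% to 50.5% in Dup/+, but 57.8% to 70.7% in Del/Dup and 63.9% to 76.3% in Del/+ replicates 1 to 3, against 41.6% in Del/+ replicate 4. All 7 listed neuron markers were present, summing to 5462 to 6540 CPM in every library. Summed markers of choroid plexus (6 genes, *Otx2* at 0) reached no more than 34.1 CPM among wt libraries. They spanned 4.88 to 1249 CPM among Del/+ libraries, 6.398 to 404 for Dup/+, and 40.9 to 1201 for Del/Dup. Summed red cell markers (3 of 4 listed genes found, of which *Hba-a2* and *Hbb* passed the test in Dup/+) spanned 83.6 to 110.0 CPM among Dup/+ libraries, against 50.3 to 71.6 for wt, 47.3 to 76.9 for Del/+ and 62.3 to 70.5 for Del/Dup. Summed oligodendrocyte markers (5 genes) spanned 4783 to 6204 CPM among wt libraries, against 5671 to 8483 for Del/+, 5651 to 6451 for Dup/+ and 5574 to 6802 for Del/Dup. The part of these differences in the results for the members was not tested, apart from the fits on the share of multi-mapped reads given below. In tissue RNA, fewer cells of a type and less RNA per cell cannot be told apart.

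The first question was whether the members followed the number of copies. In Del/+, all 8 measured members fell, to between 0.391 (*Qprt*) and 0.547 (*Mvp*) of the wt level. In Dup/+, 7 rose, to between 1.39 (*Ypel3*) and 1.55 (*Slx1b*) times wt, and *Qprt* did not pass the test. In Del/Dup, none passed the test. By edgeR's quasi-likelihood test, all 8 were lower in Del/+ at an adjusted p under 0.05, where 0.771% of the 15440 genes passed in either direction and 0.466% were lower. Every Del/+ library lay below every wt library for all 8, against 2.7% of all genes. In Dup/+, 7 of 8 passed as higher, where 0.272% of genes passed in either direction and 0.214% passed as higher. For 6 of 8 every Dup/+ library lay above wt, against 0.674% of all genes. Of the 15440 genes, 0.0907% passed in Del/Dup. Only *Qprt* had every Del/Dup library below wt there, against 1.22% of all genes.

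The median log2 fold change of the 8 members was -1.02 in Del/+, 0.50 in Dup/+ and -0.03 in Del/Dup. For the 19 other interval genes tested it was -1.003, 0.55 and -0.06, with 17, 13 and 1 of them passing. Over all 15440 genes the medians were 0.00, -0.002 and 0.001. A level in proportion to copies would give -1 in Del/+, 0.585 in Dup/+ and 0 in Del/Dup.

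**Figure D1:**
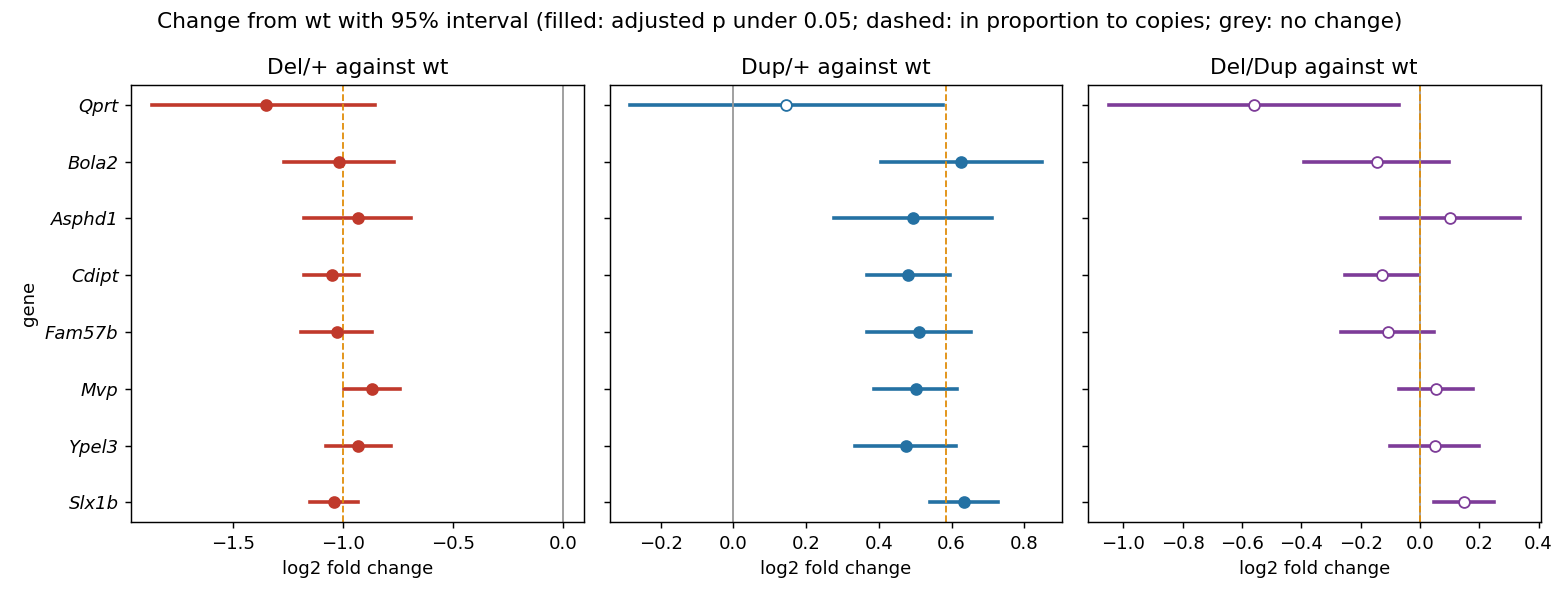
Log2 fold change from wt (x axis) of each of the 8 genes (y axis) in Del/+, Dup/+ and Del/Dup, with 95% intervals; filled points had an adjusted p under 0.05, the dashed line marks proportion to copies and the grey line no change. All 8 points are filled in Del/+, 7 in Dup/+ and none in Del/Dup.

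Among the enzymes of metabolism, *Qprt* (ENSRNOG00000016980) had few reads, 10 to 60 per library, and stood apart. In wt its level was 1.26 to 1.81 CPM with a median of 1.50. The 4 Del/+ libraries had 0.796, 0.410, 0.290 and 0.833 CPM, so replicates 2 and 3 were lower than the other pair but every one was below wt. In Dup/+ the level was 1.82, 2.04, 1.43, 1.69 and 1.27 CPM, a range that overlapped wt. The Del/Dup libraries had 0.981, 1.10, 1.21 and 0.784 CPM, and the highest stayed just under the lowest wt value. The fold change was -1.35 on the log2 scale in Del/+ (95% interval -1.87 to -0.85, adjusted p = 0.00797). In Dup/+ it was 0.15 (-0.28 to 0.58, adjusted p = 0.887), an interval whose upper end lay below proportion. In Del/Dup it was -0.56 (-1.05 to -0.07, adjusted p = 0.253), which did not pass the test. RefSeq lists a *Qprt* pseudogene, which leaves its level uncertain, and the effect on its reads was not tested.

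*Bola2* (ENSRNOG00000047988), the iron-sulfur partner protein, had 7.42 to 11.4 CPM in wt, with a median of 9.02. It had 5.36, 3.94, 4.55 and 4.41 CPM in Del/+, all below wt. In Dup/+ it had 14.6, 14.5, 13.9, 13.4 and 15.2 CPM, all above wt. The Del/Dup libraries had 9.25, 6.54, 8.88 and 8.74 CPM, of which replicate 3 was under the lowest wt value and the others were within the wt range. On the log2 scale it fell by 1.02 in Del/+ (-1.27 to -0.77, adjusted p = 4.16e-05) and rose by 0.63 in Dup/+ (0.41 to 0.85, adjusted p = 0.00574), while the Del/Dup difference was -0.15 (-0.39 to 0.10, adjusted p = 0.546). RefSeq lists pseudogenes of *Bola2* too, so its level is uncertain in the same way.

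*Asphd1* (ENSRNOG00000027213), the predicted hydroxylase, had 11.3 to 17.8 CPM in wt, with a median of 13.9. The Del/+ libraries were nearly equal, at 7.54, 7.55, 7.37 and 7.55 CPM, all below wt. In Dup/+ it had 20.5, 19.6, 24.3, 17.7 and 19.2 CPM, and replicate 4 lay within the wt range. Del/Dup, at 15.7, 12.7, 18.7 and 14.3 CPM, overlapped both wt and Dup/+. Its log2 fold change was -0.93 in Del/+ (-1.18 to -0.69, adjusted p = 8.98e-05), and with a term for libraries above 55% of multi-mapped reads it was -0.92 and just missed the threshold (adjusted p = 0.0509). The Dup/+ change of 0.49 (0.28 to 0.71) passed narrowly, with an adjusted p of 0.0445. That call was lost when any of 15 of the 19 libraries was left out. Over all 19 omissions the log2 fold change was 0.43 to 0.57 and the adjusted p up to 0.152. In Del/Dup the change was 0.10 (-0.13 to 0.34, adjusted p = 0.676).

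Both lipid genes followed copies closely. *Cdipt* (ENSRNOG00000024144), the phosphatidylinositol synthase, had 95.3 to 113 CPM in wt, with a median of 103.6. In Del/+ it had 53.8, 50.2, 46.0 and 50.4 CPM, and in Dup/+ 148.5, 144.1, 149.3, 147.3 and 136.5 CPM. Neither carrier group overlapped wt. Del/Dup had 83.0, 104.5, 96.1 and 96.5 CPM, of which replicate 2 was below every wt library. *Cdipt* fell by 1.05 on the log2 scale in Del/+ (-1.18 to -0.93, adjusted p = 5.7e-10) and rose by 0.48 in Dup/+ (0.37 to 0.60, adjusted p = 5.39e-05). In Del/Dup it was -0.13 (-0.25 to -0.006, adjusted p = 0.29), which did not pass, and the interval held 0 in 12 of 26 other settings.

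*Fam57b* (ENSRNOG00000019914), the ceramide-linked membrane protein, had 13.6 to 17.2 CPM in wt, with a median of 15.3. It had 7.37, 8.86, 6.66 and 7.28 CPM in Del/+ and 21.2, 21.6, 20.5, 22.3 and 23.2 CPM in Dup/+. Both groups were apart from wt. The Del/Dup libraries had 14.8, 13.0, 15.1 and 13.8 CPM, of which replicate 3 lay under the wt range. The log2 fold change was -1.03 in Del/+ (-1.19 to -0.87, adjusted p = 3.63e-08), 0.51 in Dup/+ (0.37 to 0.65, adjusted p = 0.000384) and -0.11 in Del/Dup (-0.27 to 0.05, adjusted p = 0.476).

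*Mvp* (ENSRNOG00000020182), the vault protein, varied little between wt animals, from 17.0 to 18.1 CPM with a median of 17.3. In Del/+ it had 9.66, 9.39, 8.24 and 10.7 CPM, all below wt. In Dup/+ it had 25.7, 24.8, 24.1, 23.9 and 24.5 CPM, all above wt. Del/Dup, at 19.1, 18.7, 16.4 and 18.1 CPM, lay on both sides of the wt range. The log2 fold change was -0.87 in Del/+ (-0.998 to -0.742, adjusted p = 1.47e-08), 0.50 in Dup/+ (0.39 to 0.62, adjusted p = 3.72e-05) and 0.06 in Del/Dup (-0.07 to 0.18, adjusted p = 0.667). With a term for libraries above 55% of multi-mapped reads the Del/Dup value was 0.30 (0.07 to 0.53, adjusted p = 0.296). That value rests on Del/+ replicate 4, the library with the most *Mvp* of its group. The Del/+ interval was the only one of the 8 that excluded -1. In 15 of 27 other settings it included -1, for example without Del/+ replicate 4 (-0.93, -1.06 to -0.81).

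*Ypel3* (ENSRNOG00000019721), the yippee family member, had 86.5 to 114.5 CPM in wt, with a median of 93.8. It had 54.9, 53.3, 44.4 and 50.3 CPM in Del/+, all below wt. In Dup/+ it had 129.8, 130.7, 150.8, 127.5 and 132.5 CPM, all above wt, with replicate 3 higher than the rest. The Del/Dup libraries, at 99.5, 107.1, 101.4 and 92.1 CPM, were within the wt range. Its log2 fold change was -0.93 in Del/+ (-1.08 to -0.78, adjusted p = 6.92e-08), 0.47 in Dup/+ (0.34 to 0.61, adjusted p = 0.000633) and 0.05 in Del/Dup (-0.10 to 0.20, adjusted p = 0.757).

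*Slx1b* (ENSRNOG00000019369), the nuclease subunit, was the steadiest member in wt, at 25.2 to 26.9 CPM with a median of 26.0. In Del/+ it had 13.0, 13.0, 11.7 and 12.9 CPM, and in Dup/+ 40.3, 41.7, 40.9, 40.3 and 38.5 CPM. The groups were far apart. In Del/Dup it had 25.6, 31.1, 28.4 and 30.0 CPM, so that replicates 3, 4 and 5 were above every wt library and replicate 2 was not. *Slx1b* fell by 1.04 on the log2 scale in Del/+ (-1.15 to -0.93, adjusted p = 3.55e-11) and rose by 0.63 in Dup/+ (0.54 to 0.73, adjusted p = 5.89e-08). In Del/Dup it was 0.15 (0.05 to 0.25), which did not pass after adjustment (adjusted p = 0.178).

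**Figure D2:**
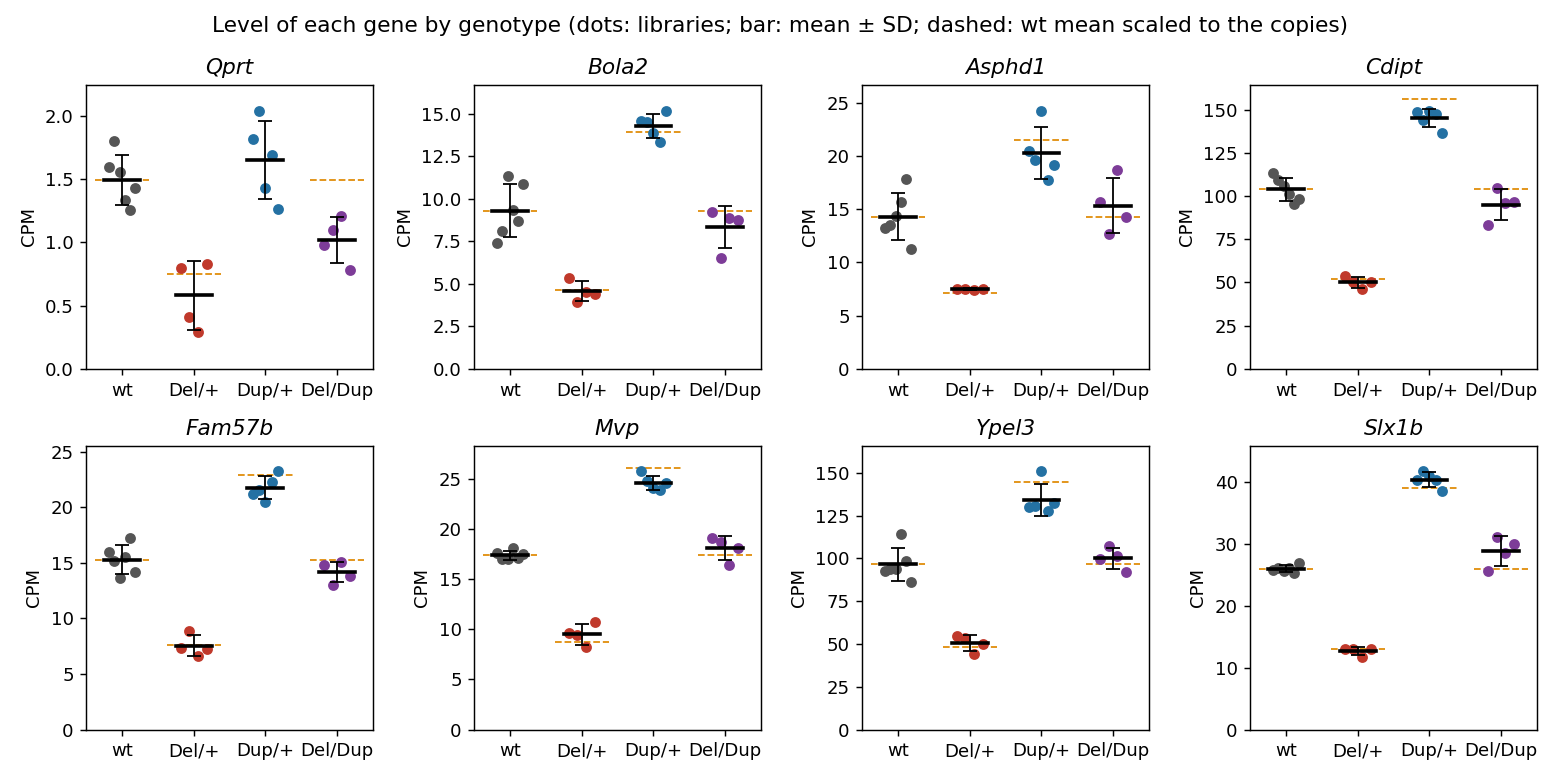
Level in CPM (y axis) of the 8 genes by genotype (x axis), with 1 dot per library, a bar for the mean ± SD and a dashed line for the wt mean scaled to the copies (n = 6 wt, 4 Del/+, 5 Dup/+, 4 Del/Dup). The Del/+ dots lie below the wt dots for all 8 genes, and the Dup/+ dots lie above them for all but *Qprt* and *Asphd1*.

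Divided by the number of copies, most members kept their wt level. In wt the level per copy was 7.64 ± 0.649 CPM for *Fam57b*, 52.0 ± 3.39 for *Cdipt*, 4.65 ± 0.776 for *Bola2* and 7.16 ± 1.11 for *Asphd1* (SD, n = 6). It was 8.69 ± 0.227 CPM for *Mvp*, 48.3 ± 4.79 for *Ypel3*, 13.0 ± 0.276 for *Slx1b* and 0.749 ± 0.0989 for *Qprt* (SD, n = 6). In Del/+ the mean per copy was 96.5% (*Cdipt*) to 109.4% (*Mvp*) of wt for 7 members and 77.7% for *Qprt*. In Dup/+ it was 92.7% (*Ypel3*) to 103.5% (*Slx1b*) for 7 members and 73.5% for *Qprt*. In Del/Dup it was 89.8% (*Bola2*) to 110.9% (*Slx1b*) for 7 members and 68.0% for *Qprt*. The mean of *Qprt* per copy was thus below that of wt in all 3 carrier groups, but Del/+ replicate 1, at 0.796 CPM, and replicate 4, at 0.833 CPM, were above the wt mean. With a term for libraries above 55% of multi-mapped reads, the log2 fold change of *Qprt* was -0.84 in Del/+ (-1.60 to -0.09) and 0.20 in Del/Dup (-0.77 to 1.17), which turned the direction of the latter. Both of these values rest on Del/+ replicate 4. All 3 comparisons share the same 6 wt libraries. The Del/+ interval of *Qprt* held proportion, its Dup/+ interval did not, except in 9 of 27 other settings, and its Del/Dup difference did not pass after adjustment.

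**Figure D3:**
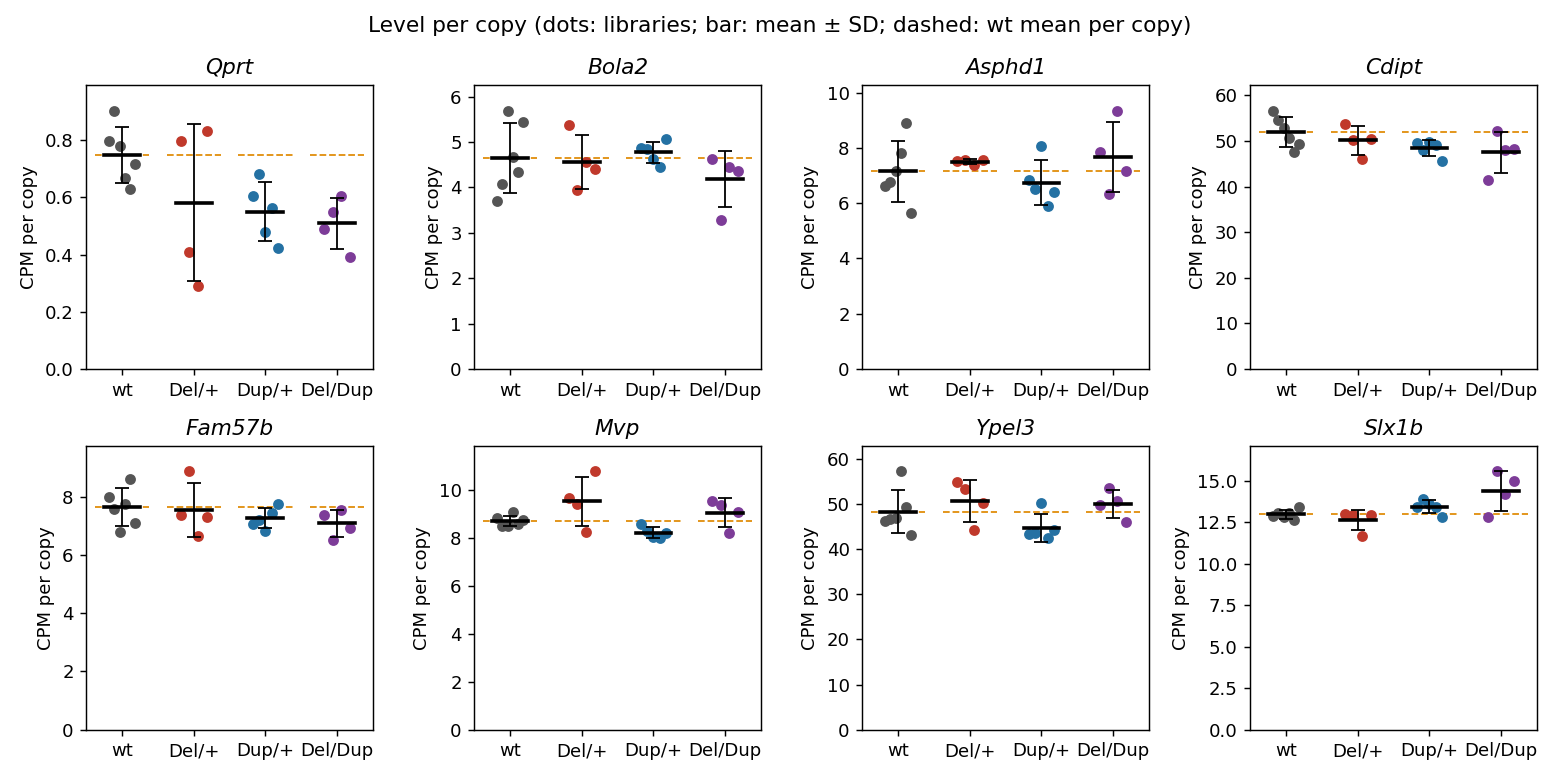
Level per copy in CPM (y axis) of the 8 genes by genotype (x axis), with 1 dot per library, a bar for the mean ± SD and a dashed line for the wt mean per copy. The *Qprt* means lie at 77.7%, 73.5% and 68.0% of wt in Del/+, Dup/+ and Del/Dup, and the other 7 genes lie between 89.8% and 110.9%.

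A slope of the log2 level on the log2 number of copies over all 19 libraries, in which 1 is proportion, put the dosage response of each member in 1 value. All 8 slopes passed the test, where 0.395% of genes passed with a positive slope. The median was 0.96 for the members, 0.97 for the 19 other interval genes and 0.00 for all genes. The slope was 1.06 for *Slx1b* (0.98 to 1.14), 1.04 for *Bola2* (0.87 to 1.20), 0.97 for *Cdipt* (0.88 to 1.06) and 0.97 for *Fam57b* (0.87 to 1.08). It was 0.95 for *Qprt* (0.59 to 1.32, adjusted p = 0.0103), the widest interval, and 0.91 for *Asphd1* (0.75 to 1.06). Without Del/+ replicate 2 the *Qprt* slope was 0.86 and no longer passed (adjusted p = 0.0593), and with a term for libraries above 55% of multi-mapped reads it was 0.71 (0.34 to 1.08, adjusted p = 0.176).

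*Mvp* and *Ypel3* had slopes under proportion. The *Mvp* slope was 0.87 (0.79 to 0.95), so that a doubling of copies went with a 1.82-fold level, and its interval lay below 1 in all 25 other settings that gave one. The *Ypel3* slope was 0.89 (0.79 to 0.99), and its interval included 1 in 8 of 25 other settings. Among the 19 other interval genes, 16 had intervals that held 1, and the exceptions were *Spn* and *Maz* above it and *Ino80e* below it. An interval that holds 1 can also be a wide one. That of *Sult1a1* was 0.31 to 1.04 around a slope of 0.67, which did not pass (adjusted p = 0.114). Its log2 fold change was -0.10 in Dup/+ and -1.25 in Del/Dup, so it did not follow copies. Over the 7 comparisons, 12 of the 56 member intervals excluded proportion. These intervals share libraries and were not adjusted for their number.

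**Figure D4:**
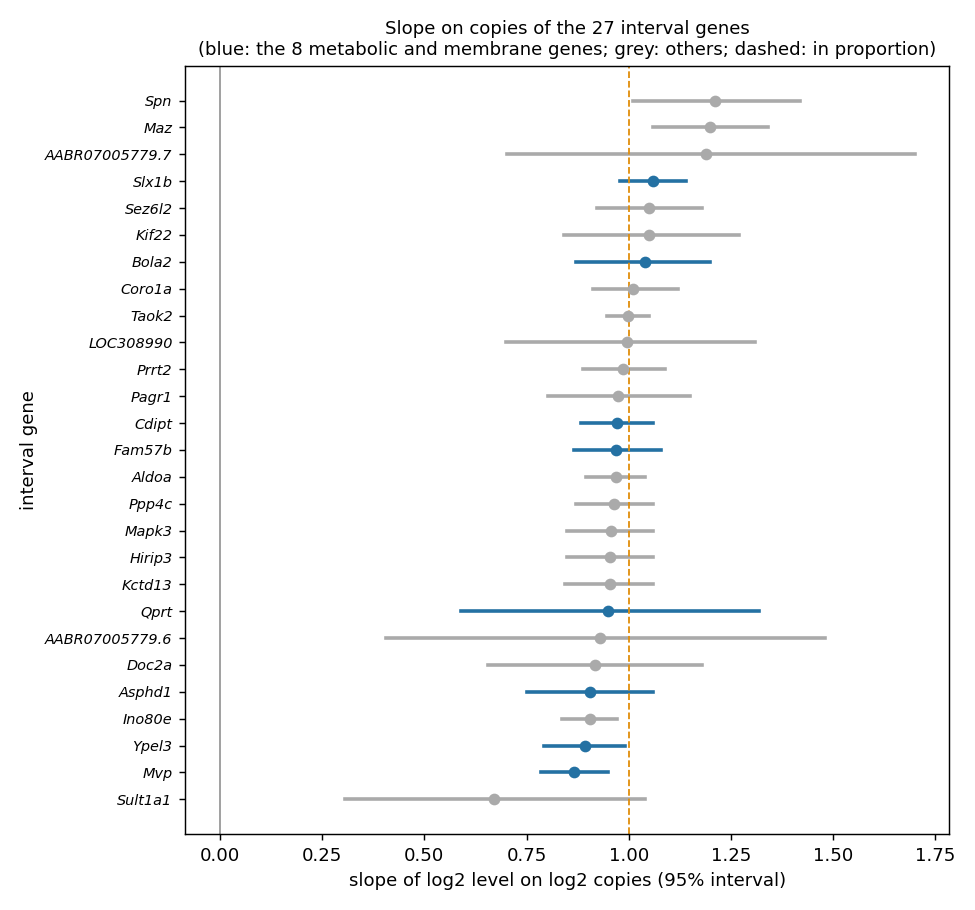
Slope of the log2 level on log2 copies with its 95% interval (x axis) for the 27 interval genes tested (y axis); blue marks the 8 genes described here, grey the others, and the dashed line proportion. The blue points run from 0.87 for *Mvp* to 1.06 for *Slx1b*, among the grey ones.

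The steepest and the flattest member, a pair chosen after their slopes were seen, were set against each other within each library as a description. The ratio of *Slx1b* to *Mvp* in CPM was 1.50 ± 0.0406 in wt (1.44 to 1.54, SD, n = 6) and 1.34 ± 0.0940 in Del/+ (1.20 to 1.42, SD, n = 4). It was 1.64 ± 0.0658 in Dup/+ (1.57 to 1.70, SD, n = 5) and 1.60 ± 0.173 in Del/Dup (1.35 to 1.73, SD, n = 4). Every Del/+ library lay below every wt library and every Dup/+ library above. Del/Dup libraries lay on both sides of the wt range, with a median of 1.66, above the highest wt ratio.

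The comparison of Del/+ with Dup/+ covers the full range from 1 to 3 copies. All 8 members passed as lower in Del/+, where 0.486% of genes did, and all 8 had groups that did not overlap, against 2.97% of genes. Changes on the log2 scale ran from -1.67 for *Slx1b* (0.313-fold, -1.78 to -1.57, adjusted p = 1.06e-14) to -1.37 for *Mvp* (0.387-fold, -1.50 to -1.24, adjusted p = 7.28e-12). *Qprt* was at -1.50 (-2.03 to -0.98, adjusted p = 0.00347). With a term for libraries above 55% of multi-mapped reads it was at -0.99 and did not pass (adjusted p = 0.301). With Del/+ replicate 4 alone it was also at -0.99, which is the same estimate, since the term leaves that library to set the Del/+ level. Proportion would give -1.585, and the intervals of *Mvp* and *Ypel3* (-1.56 to -1.25) excluded it, that of *Mvp* also in all 27 other settings and that of *Ypel3* in all but 6.

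Del/Dup against Del/+ compares 2 copies with 1 when both groups carry a deleted chromosome. Here 7 of 8 members passed as higher, where 0.168% of genes did, and 7 had every Del/Dup library above Del/+, against 2.38% of genes. The log2 fold change of those 7 ran from 0.87 for *Bola2* (adjusted p = 0.00161) to 1.19 for *Slx1b* (1.07 to 1.30, adjusted p = 2.52e-11). *Qprt* was at 0.79 (0.22 to 1.38, adjusted p = 0.394) and its groups overlapped. The *Slx1b* interval was the only one above 1, and it stayed above 1 in 26 of 27 other settings.

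Del/Dup against Dup/+ compares 2 copies with 3 when both carry the duplicated chromosome. Of the 8 members, 6 passed as lower, where 0.181% of genes did. For 7 every Del/Dup library lay below Dup/+, against 2.07% of genes. The 6 that passed had log2 fold changes from -0.77 for *Bola2* (adjusted p = 0.00265) to -0.42 for *Ypel3* (-0.58 to -0.27, adjusted p = 0.0102). *Qprt*, at -0.70 (-1.22 to -0.20, adjusted p = 0.226), and *Asphd1*, at -0.39 (-0.63 to -0.15, adjusted p = 0.157), did not pass. Proportion would give -0.585, and the intervals of *Ypel3* and *Mvp* (-0.57 to -0.32) lay above it, but held it in 10 and 6 of 26 other settings. All Dup/+ libraries were below 55% of multi-mapped reads and all Del/Dup libraries above it, so a term for that share is set by the Del/+ libraries alone. With a term for that share none of the 8 passed: *Bola2* (-0.84), *Fam57b* (-0.68), *Cdipt* (-0.60), *Ypel3* (-0.44) and *Slx1b* (-0.44) kept folds near those above with wider intervals, and *Mvp* came to -0.20 (-0.43 to 0.03). These comparisons share libraries with those against wt and are not independent of them.

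The share of multi-mapped reads moved with 2 of the carrier groups, so the comparisons were repeated among libraries on the same side of 55%. With Del/+ replicate 4 alone against wt, the fit assumes that the lone library varies like the others. All 8 members were lower there, with log2 fold changes from -1.07 (*Bola2* and *Fam57b*) to -0.69 (*Mvp*, -0.86 to -0.53) and *Qprt* at -0.84. Fits with a term for the share give in effect the same Del/+ estimates, since both rest on that library. Among libraries above 55%, Del/Dup exceeded Del/+ by 0.86 (*Bola2*, adjusted p = 0.11) to 1.21 (*Slx1b*, 1.02 to 1.39) on the log2 scale, with *Mvp* at 0.998 and *Qprt* at 1.05, and 6 of 8 passed. All Del/Dup libraries were above 55% and all wt and Dup/+ libraries below it, so no comparison of Del/Dup with wt or Dup/+ could be made on 1 side of 55%. Values of those comparisons with the term depend on how Del/+ replicate 4 differed from the rest of its group.

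Spread between animals differed between members. The coefficient of variation within a group was 2.13% to 8.25% for *Slx1b*, 2.61% to 10.8% for *Mvp*, 3.60% to 9.35% for *Cdipt*, 4.79% to 12.4% for *Fam57b* and 6.17% to 9.93% for *Ypel3*. It was 4.98% to 16.7% for *Bola2*, 1.19% to 16.7% for *Asphd1* and 13.2% to 46.9% for *Qprt*. Counting error alone would give 1.71% to 2.53% for *Cdipt* and 1.78% to 2.51% for *Ypel3*, both below the measured spread in every group. For *Slx1b*, at 3.25% to 5.04%, *Mvp*, at 4.17% to 5.84%, and *Qprt*, at 15.0% to 25.8%, the spread was below counting error in at least 1 group. The same held for *Bola2* in Dup/+ (4.98% against 5.48%) and *Asphd1* in Del/+ (1.19% against 6.55%), and *Fam57b* in Dup/+ was close (4.79% against 4.45%). These figures cover counting error only.

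The spread fitted over all 19 libraries put the members in a similar order. The biological coefficient of variation estimated by edgeR was 4.74% for *Slx1b*, where genes of the same abundance had 8.45%, and 5.50% for *Mvp*, against 9.44%. It was 6.57% for *Cdipt* (7.43%), 7.05% for *Fam57b* (9.95%) and 7.86% for *Ypel3* (7.38%). It was 11.5% for *Bola2* (12.2%), 11.7% for *Asphd1* (10.1%) and 17.3% for *Qprt* (23.6%). Thus the estimates of *Ypel3* and *Asphd1* lay above that of genes of the same abundance, and those of the other 6 below. These differences were not tested.

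**Figure D5:**
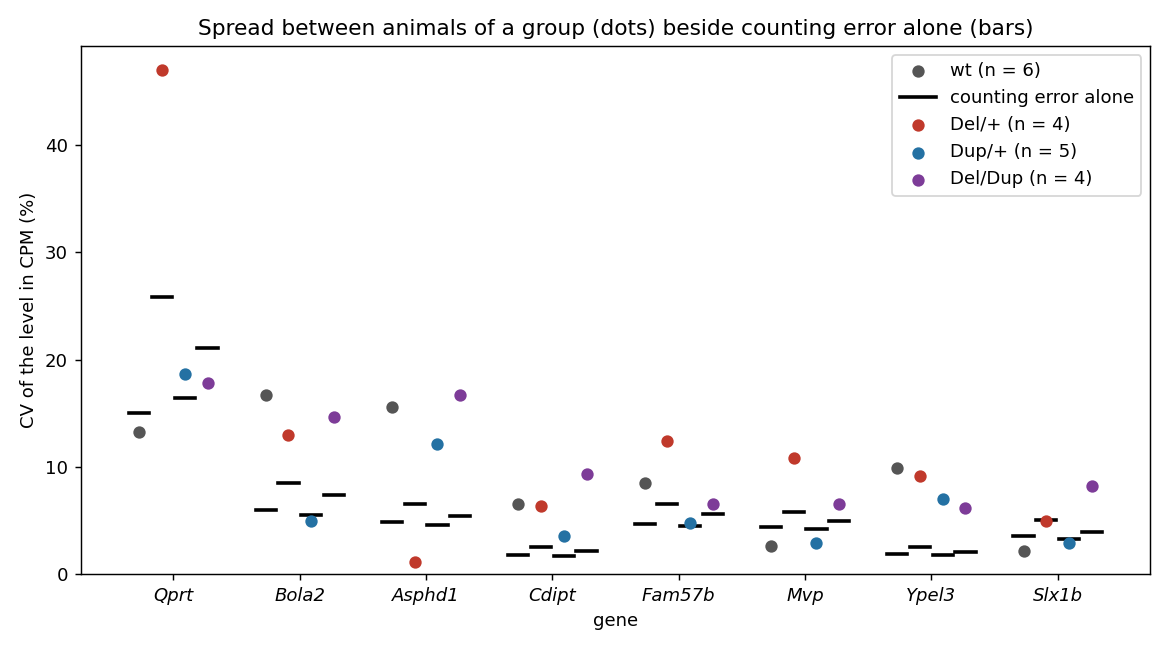
Coefficient of variation in % (y axis) of each of the 8 genes (x axis) within each genotype, as dots, with a bar for the value that counting error alone would give. *Qprt* in Del/+, at 46.9%, is the highest dot and *Asphd1* in Del/+, at 1.19%, the lowest.

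For each member the tested genes with the most similar pattern were taken by Pearson's r of log2 CPM over the 19 libraries, a description in which all genes share the libraries and copy number dominates. Within the interval, *Taok2* was nearest to *Slx1b* (r = 0.989), *Mvp* (0.988) and *Fam57b* (0.98), and *Aldoa* was nearest to *Cdipt* (0.99) and *Bola2* (0.957). *Hirip3* was nearest to *Ypel3* (0.986), *Ypel3* to *Asphd1* (0.958) and *Prrt2* to *Qprt* (0.876). Outside the listed genes, the unnamed model AABR07005779.2 (ENSRNOG00000020000) was nearest to all 8, with r from 0.833 for *Qprt* to 0.975 for *Cdipt*. It shares its name stem with models in the interval list, and its position is not given here. Del/+ libraries had 3.74 ± 0.535 CPM of it (SD, n = 4) and Dup/+ libraries 11.1 ± 0.411 (SD, n = 5). The wt level was 7.24 ± 0.749 CPM (SD, n = 6) and that of Del/Dup 6.45 ± 0.358 (SD, n = 4). Its slope on copies was 0.99. Leaving out models with that stem, AABR07070225.1 was nearest to 5 members (r from 0.882 to 0.934), *Rad21l1* to *Asphd1* (0.905) and *Ypel3* (0.884), and *Ucp2* to *Qprt* (0.822).

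The genes that act beside the members were taken as 9 lists of 114 genes, of which 107 were found and 96 tested. Only *Pip5k1c* passed in any of the comparisons. This kinase, which makes the lipid phosphatidylinositol bisphosphate downstream of *Cdipt*, had 372.8 to 423.2 CPM in wt and 308.8 to 359.6 in Del/+, with no overlap. Its log2 fold change was -0.28 in Del/+ (SE 0.0516, adjusted p = 0.00971), -0.20 in Dup/+ (adjusted p = 0.144) and -0.15 in Del/Dup (adjusted p = 0.187), so its level was not ordered by copies. As a share, 1 of 96 (1.04%) stood beside 0.771% of all genes. By edgeR no listed gene passed in Dup/+ or in Del/Dup, where 9 and 13 of the 96 had an unadjusted p under 0.05, and 18 did in Del/+. These are 9.38%, 13.5% and 18.8% of the listed genes, beside 8.94%, 16.2% and 18.4% of all genes. The shares were 17.7% beside 13.5% in Del/+ against Dup/+, 13.5% beside 8.48% in Del/Dup against Del/+, 13.5% beside 13.5% in Del/Dup against Dup/+ and 16.7% beside 12.1% for the slope, with no listed gene passing after adjustment.

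By pathway, the medians of the log2 fold change lay near 0. For the 14 tested genes of kynurenine and NAD synthesis they were 0.008 in Del/+, -0.053 in Dup/+ and -0.028 in Del/Dup. For the 21 genes of phosphatidylinositol synthesis and turnover they were -0.021, -0.008 and -0.050, and for the 22 genes of ceramide and sphingolipid synthesis 0.085, -0.017 and 0.012. For the 23 genes of iron-sulfur cluster assembly they were 0.000, 0.007 and -0.015. *Glrx3*, the partner of *Bola2*, had log2 fold changes of 0.09, 0.08 and 0.09, none of which passed. *Tep1*, the telomerase-associated protein of the vault and the only other vault gene tested, had -0.09, -0.07 and 0.01 (adjusted p = 0.67, 0.868 and 0.974). The 4 other yippee genes had medians of 0.072, -0.008 and 0.158, the 7 nuclease genes -0.032, -0.064 and 0.063, and the pairs listed for *Asphd1* (*Asph* and *Asphd2*) and *Tmem219* (*Igfbp3* and *Chi3l1*) did not pass either. The nuclease scaffold *Slx4*, the partner of *Slx1b*, had a log2 fold change of 0.21 in Del/Dup (adjusted p = 0.108).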

How the data were processed

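Per the labels and the methods of the study, the authors made stranded total RNA libraries, sequenced single-end 50-base reads, aligned them with HISAT2 to the Rno6 assembly and counted them with HTSeq-count. The protocol describes rRNA removal and other fields name polyA RNA, which was not settled here. The deposited values are raw counts per Ensembl gene. The 5 summary lines of each file were kept out of library sizes and tests.

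From the deposited counts, all 19 libraries entered 1 edgeR 4.0.16 fit (R 4.3.3, quasi-likelihood F test, trimmed mean of M values, filterByExpr) with a mean per genotype and no covariate. A gene passed at a Benjamini-Hochberg adjusted p under 0.05 over 15440 genes. Levels are CPM on the scaled library size. Intervals are 95% Wald intervals of the unshrunken fit, while log2 fold changes use the default prior count. The slope used log2 copies in place of genotype. Likeness used log2(CPM + 0.1).

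The fit was run on simulated counts with an equal spread for all genes and no effect of the multi-mapped share. That run does not bear on unequal spread or on that share. Groups and replicate numbers came from the labels. Nothing there names separate litters or cultures, while the study describes the wt rats as littermates. The p-values measure the spread between these animals. Same-numbered libraries of different groups correlated from -0.222 to 0.137 over 24 pairs, so the numbers were not taken to pair animals. No pair of libraries of a group was a duplicate (chi-square per degree of freedom 3.52 to 59.3 over 37 pairs). Named genes were the members, genes of the pathway lists that passed in a carrier group against wt, and the nearest genes by likeness. Direct partners of members, 2 red cell genes and the nearest genes outside the AABR07005779 models were named after their values were seen. The members, lists and tests were chosen with earlier results of these data known. Fits on either side of 55% of multi-mapped reads were added after seeing the data. Alternatives were DESeq2 1.42.0, other scalings and filters, a replicate block, the other label of wt replicate 5 and leaving out each library. Sequences are from RefSeq (GRCr8) and the study's list of oligonucleotides. A table of gene models was used for names, gene order and pseudogenes only.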

Additional observations from a re-analysis of the deposited data

Results flagged for a closer look

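In 3 of 32 combinations of gene and genotype with 4 to 6 libraries, 1 library stood farther from the others than Dixon's 95% value allows, where chance gives about 1 in 20. Del/+ replicate 3 had 7.37 CPM of *Asphd1*, against 7.54 to 7.55 CPM in the other 3 libraries, in a group whose coefficient of variation (1.19%) was under that of counting error (6.55%). It also had 11.7 CPM of *Slx1b*, against 13.0 CPM in the others. Dup/+ replicate 3 had 151 CPM of *Ypel3*, against 128 to 132 CPM in the other 4 libraries.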

How the results depend on the processing

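The number of members that passed stayed within 6 to 8 in Del/+ (8 as reported), 7 to 8 in Del/+ against Dup/+ (8), 6 to 7 in Del/Dup against Del/+ (7) and 7 to 8 for the slope (8), and was 0 in Del/Dup against wt in every setting. With wt replicate 5 read as Dup/+, although it lay below every Dup/+ library for 7 members, 3 members passed in Dup/+ (7 as reported) and 2 in Del/Dup against Dup/+ (6). A term for libraries above 55% of multi-mapped reads left 0 in Del/Dup against Dup/+, although 5 of the 6 log2 fold changes stayed at -0.84 to -0.44 and that of *Mvp* came to -0.20. That term, which rests on Del/+ replicate 4, turned *Qprt* to 0.20 in Del/Dup against wt and to 0.053 in Del/Dup against Dup/+. Leaving out 1 library, *Asphd1* in Del/Dup against wt ran from -0.0024 (without Del/Dup replicate 4) to 0.19. The cause was not tested. *Qprt* (-0.84, adjusted p = 0.33) and *Asphd1* (-0.92, adjusted p = 0.0509) in Del/+ did not pass with that term, and DESeq2 gave no adjusted p for *Qprt* there. Leaving out 1 library gave 6 to 7 members in Dup/+ and 7 to 8 for the slope.

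With a replicate block, *Asphd1* in Dup/+ was 0.44 and did not pass (adjusted p = 0.22), and no other call of a member changed. The numbers were not taken to pair animals, and the block gave 72 genes in Del/+ (119 without it), 31 in Dup/+ (42) and 7 in Del/Dup (14).

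Over all genes the count ranged from 46 (without Del/+ replicate 2) to 655 (DESeq2) in Del/+, from 12 (wt replicate 5 as Dup/+) to 80 (DESeq2) in Dup/+, and from 2 (without Del/Dup replicate 4) to 216 (without Del/Dup replicate 3) in Del/Dup. It ranged from 51 to 267 in Del/+ against Dup/+, 22 to 74 in Del/Dup against Del/+, 7 to 177 in Del/Dup against Dup/+ and 41 to 205 for the slope. The few reads of *Qprt* limit its values.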
